A study of Mus musculus with 15 samples.

Results

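The genes described here are 47 interferon-stimulated genes, listed by name and followed across 5 sorted murine mononuclear phagocyte subtypes at steady state, in naïve mice that had received no stimulus. Members were matched by symbol to the Ensembl identifiers of the deposited gene counts. Counts were found for 46 of the 47, among 38924 gene identifiers in all, and Gbp5 is not analysed here. All 46 passed the filter on low counts, more than 1 CPM (counts scaled to library size) in at least 3 libraries, which 14456 genes passed.

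Type I and type III interferons signal through receptor-bound JAK kinases to a complex of STAT factors with IRF9 that binds the interferon-stimulated response element (ISRE), while interferon gamma acts mainly through the gamma-activated site (GAS). The genes that answer encode cytosolic sensors of viral nucleic acid, proteins that bind or degrade viral RNA, membrane and GTPase restriction factors, the ubiquitin-like modifier ISG15 with its enzymes, and factors of the pathway itself. Mononuclear phagocytes hold part of this program in the absence of infection, and DCs and monocytes are known both to sense virus and to respond to interferon.

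Mice were naïve C57BL/6 females, 6 to 8 weeks old according to the labels, and each of the 15 libraries pooled the sorted cells of 5 mice. Spleens were the source of Ly6C+ monocytes, of CD8+ DCs as the DC1 subtype and of CD4+ DCs as the DC2 subtype. Lung-draining LNs were the source of the other pair, CD103+ DCs (DC1) with CD11b+ DCs (DC2). The gate for both took cells with high MHC class II, which marks the migratory DCs of a node. Every subtype had 3 libraries. LNs and spleens were taken from separate cohorts, so organ, cohort and the MHC class II gate cannot be told apart in any comparison of LN with spleen. Cells were released with collagenase D, enriched on CD11c beads (DCs) or CD11b beads (monocytes) and sorted. Polyadenylated RNA was amplified and read on an Ion Torrent instrument. The pools are the replicates, so that p-values measure the spread between pools. In bulk RNA, fewer cells that express a gene and less RNA per cell cannot be told apart.

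Libraries held 4531243 to 10233914 counts on genes (median 7331110), and 56.88% to 65.85% of alignments were assigned to a gene. The sorted subtypes carried the markers of their labels. Of the 7 DC1 markers (Xcr1 and Clec9a among them), 7 were higher in splenic CD8+ than CD4+ DCs, and the 5 DC2 markers were lower. The DC1 markers summed to 3750 to 5870 CPM in CD8+ DCs, and in the LN to 812 to 1140 CPM in CD103+ and 301 to 452 CPM in CD11b+ DCs. Batf3 differed little between the LN subtypes (means of 83.6 and 74.5 CPM). The DC2 markers summed to 53.1 to 72.7 CPM in LN CD103+ and to 824 to 921 CPM in LN CD11b+ DCs. The 5 monocyte markers were higher in monocytes than in splenic DCs. The 3 genes of migratory DCs (Ccr7, Fscn1 and Ccl22) summed to between 5580 and 12700 CPM in LN DC libraries and to at most 349 CPM in splenic ones. Genes listed as markers of other cell types were also counted. The 6 neutrophil markers summed to 91.5 to 145 CPM in monocyte libraries and to at most 0.809 CPM in DC libraries. In monocytes, S100a8 (41.9 CPM), S100a9 (37.9 CPM) and Camp (25.3 CPM) had the highest means of the 6, and Ly6g had 4 counts. The paper names S100A8 and S100A9 among the signature genes of monocytes. The 4 T cell markers summed to 45.8 to 90.8 CPM in LN DCs and to at most 5.26 CPM in splenic DCs, with Cd3e and Trac at 0 counts in monocytes. The 6 markers of red pulp macrophages summed to 250 to 330 CPM in splenic CD8+ DCs and to 605 to 798 CPM in CD4+ DCs. Vcam1 (321 CPM) and Hmox1 (272 CPM) had the highest means of the 6 in CD4+ DCs, and Vcam1 averaged 266 CPM in LN CD11b+ DCs. The sort took lineage-negative cells, and the paper lists mouse antibodies to Ly6G and CD3. The part of such other cells in the results on interferon-stimulated genes was not tested.

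The promoter letters through which the pathway is known to act could be read for 35 of the 46 members, from RefSeq windows that run from 250 bases before to 50 bases after a transcription start (mouse build GRCm38.p6). The core of the ISRE was searched as GAAANNGAAA on both strands, which reads TTTCNNTTTC on the reverse strand, and was found in 19 of the 35 members (54.3%) against 1079 of all 27025 genes with a window (3.99%). Some genes have several windows, and by window the core was in 20 of 45 for the members and in 1131 of 32851 for all genes. The GAS letters TTCNNNGAA, the same on both strands, were found in 12 of the 35 members (34.3%) against 9.55% of all genes. Some members with large values below have no ISRE match (Irf1, Ifitm1, Oasl1 and Oasl2), a match only after the start (Ddx58 and Ifitm3) or no window (Oas2). The sequences have every ISRE core in capitals and are read 5′ to 3′ on the strand of their gene. Of the members with a core upstream of the start, 9 are shown around the match that lies nearest to it. They stand for the RNA-binding effectors (Ifit1 at chr19:34640790-34640827 and Ifit3 at chr19:34583393-34583430 on the plus strand, Oas1a at chr5:120907526-120907553 and Oas3 at chr5:120777711-120777748 on the minus strand), the modifier ISG15 (chr4:156200861-156200898, minus strand), the STAT subunit (Stat2 at chr10:128270262-128270299, plus strand), a GTPase (Gbp2 at chr3:142620590-142620627, plus strand) and 2 of the 3 genes that went the other way in splenic DCs (Trim30a at chr7:104465206-104465243 and Bst2 at chr8:71537573-71537610, both minus strand). The other one, Mx1, had no window.
Ifit1: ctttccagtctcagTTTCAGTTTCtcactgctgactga
Ifit3: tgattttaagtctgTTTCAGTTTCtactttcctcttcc
Oas1a: cttctcggGAAATGGAAACTGAAAatct
Oas3: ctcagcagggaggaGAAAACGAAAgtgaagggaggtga
Isg15: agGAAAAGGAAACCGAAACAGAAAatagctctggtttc
Stat2: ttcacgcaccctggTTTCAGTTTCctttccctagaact
Gbp2: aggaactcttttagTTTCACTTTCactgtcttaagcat
Trim30a: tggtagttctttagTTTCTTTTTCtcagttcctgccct
Bst2: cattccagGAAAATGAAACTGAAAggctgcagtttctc

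The match nearest the start lay 14 bases before the start in Oas1a, 36 in Trim30a, 59 in Gbp2, 66 in Isg15, 75 in Oas3, 85 in Ifit1, 122 in Ifit3, 124 in Bst2 and 222 in Stat2. Further cores start at positions -20 in Oas1a, -130 in Bst2, and -78 and -72 in Isg15, counted from the start. Each overlaps the next one, so that the capitals there are longer. Ifit1 has a further core at -104 and Ifit3 at -156, which do not lie wholly within the stretches shown, and Trim30a has a window at another start that holds one too. A match is a description of letters, not a site shown to be used, and a window without one says only that these letters are not in it. The members also sit together on the genome: Ifit1, Ifit2 and Ifit3 on chromosome 19, the 3 Oas and 2 Oasl genes on chromosome 5, Gbp2, Gbp3 and Gbp7 on chromosome 3, and the 3 Ifitm genes on chromosome 7.

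Across the 5 subtypes, 45 of the 46 members differed somewhere (97.8%, against 73.5% of all genes tested, edgeR quasi-likelihood test with Benjamini-Hochberg adjustment over all genes, threshold 0.05). A member that passed this test is called higher or lower below. The exception was Trex1, the cytosolic DNA exonuclease, whose exons lie wholly within those of Atrip, so that reads of the pair cannot be told apart here. The highest mean level was found in splenic monocytes for 29 members, in LN CD103+ DCs for 11, in splenic CD4+ DCs for 5 (Ddx58, Isg20, Ifitm1, Irgm1 and Igtp) and in splenic CD8+ DCs for 1 (Iigp1). Splenic CD8+ DCs had the lowest mean for 32 members, CD4+ DCs for 6, LN CD103+ DCs for 5, LN CD11b+ DCs for 2 and monocytes for 1. Between the highest and the lowest subtype, the ratio of mean CPM ran from 1.55 (Ifi35) through a median of 8.04 to 206 (Oas2, 143 ± 17.4 CPM in monocytes and 0.693 ± 0.873 CPM in CD8+ DCs, mean ± SD, n = 3).

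A score over the members, their mean log2 CPM in a library, was 4.43, 4.02 and 4.42 in splenic CD8+ DCs and 5.75, 5.35 and 5.97 in splenic CD4+ DCs. It was 5.64, 5.79 and 5.66 in LN CD103+ DCs and 6.09, 5.97 and 5.87 in LN CD11b+ DCs. Monocytes had 6.91, 6.72 and 7.03. All 3 CD8+ DC libraries lay below the other 12 libraries and all 3 monocyte libraries above them, while the range of CD4+ DCs overlapped with that of either LN subtype. The LN CD103+ libraries lay below the LN CD11b+ libraries. Of all counts, the members took 0.241% to 0.294% in CD8+ DCs, 0.334% to 0.539% in CD4+ DCs and 0.922% to 1.09% in monocytes. In the LN the share was 0.532% to 0.592% for CD103+ DCs and 0.505% to 0.552% for CD11b+ DCs.

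**Figure D1:**
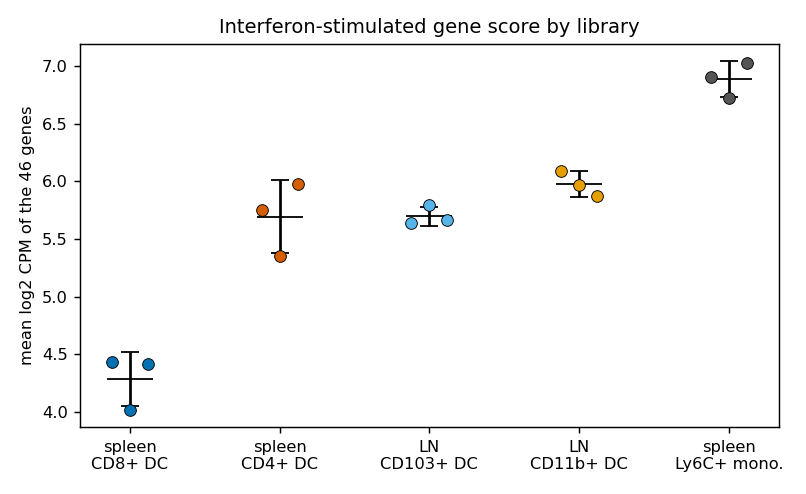
Score over the 46 interferon-stimulated genes (y axis, mean log2 CPM) in each library, by sorted subtype (x axis). Points are libraries and bars the mean ± SD of 3. Splenic CD8+ DCs averaged 4.29 ± 0.23, splenic CD4+ DCs 5.69 ± 0.31 and monocytes 6.88 ± 0.16, and in the LN the means were 5.70 ± 0.08 (CD103+ DCs) and 5.98 ± 0.11 (CD11b+ DCs).

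A few genes made up much of the summed level per transcript length. In TPM, counts per exon length scaled to the same total in every library, the members summed to 2233 ± 192 in CD8+ DCs, 4416 ± 1200 in CD4+ DCs and 16070 ± 884 in monocytes. The LN subtypes had 4710 ± 275 (CD103+ DCs) and 5229 ± 402 (CD11b+ DCs). Ifitm3, which blocks fusion of viral with cell membranes, held 31.0% to 33.9% of that sum in monocyte libraries. Irf7, the master factor of type I interferon genes, held 13.1% to 19.3% in CD8+ DCs, and Irf1, a factor downstream of interferon gamma, held 17.2% to 18.3% in LN CD103+ DCs. Without Ifitm3, Ifi27l2a and Irf7, the sums were 1593 ± 199, 2760 ± 645 and 6630 ± 468 TPM in the same order of splenic subtypes, and 4282 ± 300 and 3735 ± 187 TPM in LN CD103+ and CD11b+ DCs. The order of the lowest and the highest subtype stood, and LN CD103+ DCs then lay above LN CD11b+ DCs. The most abundant members per length were Ifitm3 (5170 ± 84.9 TPM), Ifi27l2a (3220 ± 354 TPM), Ifitm2 (1630 ± 111 TPM) and Irf7 (1050 ± 172 TPM) in monocytes, and Irf1 in LN CD103+ DCs (835 ± 72.2 TPM). At the other end, Gbp7 stood at 0.553 ± 0.232 TPM and Oas2 at 0.382 ± 0.491 TPM in CD8+ DCs.

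**Figure D2:**
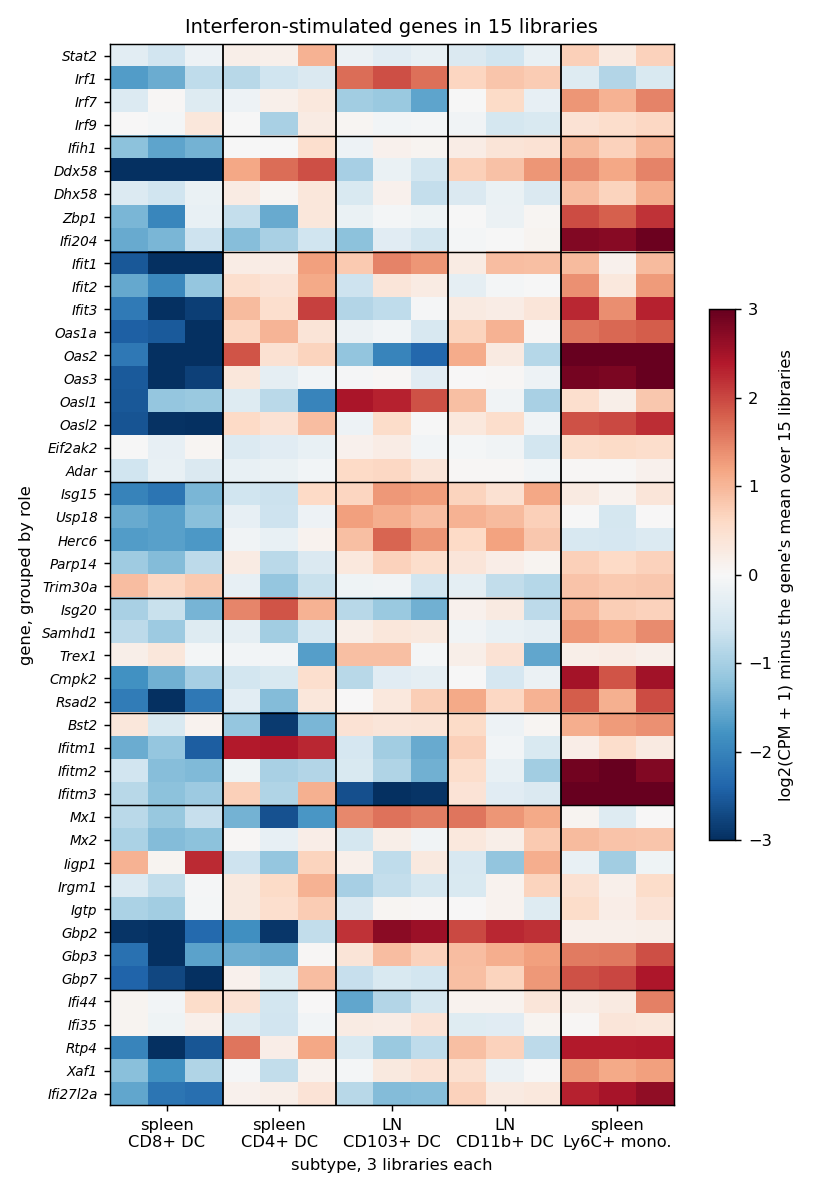
Level of the 46 members (rows, grouped by role) in the 15 libraries (columns, grouped by subtype), as log2(CPM + 1) minus the gene's mean over the libraries. Blue is below and red above that mean, and the colour scale ends at 3 in both directions. Most rows are lowest in the 3 CD8+ DC libraries, and monocytes have the highest mean for 29 of the 46 members.

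Within the spleen, the first comparison asked how DC1 and DC2 of one organ differ. The interferon-stimulated genes were lower in CD8+ than in CD4+ DCs. Of the 46 members, 30 were lower (65.2%, against 14.4% of all genes tested), 3 were higher (6.52%, against 13.1%) and 13 did not pass the test. The median log2 fold change was -1.17 over the members and 0.0 over all genes, and 26 members were lower by more than 2-fold. The score differed by -1.4. Monocyte markers moved with this comparison: the 5 summed to 147 to 212 CPM in CD8+ and to 443 to 624 CPM in CD4+ DC libraries. Csf1r averaged 96.7 against 516 CPM, while Ly6c2 (10.9 against 0.564 CPM) and Ccr2 (57.7 against 16.9 CPM) went the other way. The summed markers of red pulp macrophages, given above, were also lower in CD8+ DCs. The part of monocyte or macrophage RNA in the splenic differences was not tested. CD8+ and CD4+ DC libraries of the same number were paired by the rule given with the methods, and with the replicate number as a block, the GTPase gene Iigp1 was higher and also passed the test (log2 fold change 1.79, adjusted p = 0.00228 against 0.0694 without the block).

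The largest difference was in Ddx58, which encodes RIG-I, a sensor of viral RNA. It stood at 4.54, 2.16 and 3.89 CPM in CD8+ DCs and at 98.6, 143 and 171 CPM in CD4+ DCs. The groups were far apart, 38.9-fold in mean CPM (log2 fold change -5.26 ± 0.32, SE, adjusted p = 2.51e-09). Of the 5 sensors, Ifih1 (MDA5) and Dhx58 (LGP2) were lower too, by 1.62 and 0.61 on the log2 scale. The call of Dhx58 was lost in 6 of 20 alternatives. Zbp1 and Ifi204, sensors of left-handed nucleic acid and of DNA, gave log2 fold changes of -0.58 (adjusted p = 0.3) and -0.2 (adjusted p = 0.627).

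Among the 10 RNA-binding effectors and oligoadenylate synthetases, 7 were lower in CD8+ DCs. Oas2, a synthetase of the messenger that activates RNase L, was measured at 1.67, 0.405 and 0 CPM in CD8+ DCs (17 counts over the 3 libraries) and at 43, 15.3 and 17.8 CPM in CD4+ DCs. Ifit1, which binds RNA without a host-type cap, was measured at 4.06, 1.62 and 1.83 CPM against 33.3, 33.2 and 67.3 CPM. Every library of CD8+ DCs lay below every library of CD4+ DCs for both genes. The log2 fold changes were -5.17 ± 0.7 for Oas2 (adjusted p = 2.06e-05, and -3.38 by limma on log2(TPM + 1)) and -4.14 ± 0.41 for Ifit1 (adjusted p = 5.12e-07, 17.8-fold in mean CPM). Ifit3 fell by 4.4, Oasl2 by 3.78, Oas1a by 3.47, Oas3 by 3.21 and Ifit2 by 2.27 on the log2 scale. Of the transcript sequence of Oas1a, 57.57% of 50-base words are shared with other genes (Oas1g among them), and of Ifit3 51.24% (Ifit3b), so that reads of these copies were counted only where unique. The 3 that did not pass were Oasl1 (log2 fold change -0.62), the kinase PKR (Eif2ak2, 0.27) and the RNA editor Adar (-0.25).

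Of the 5 genes of the ISG15 system and the ubiquitin or ADP-ribose ligases, 4 were lower and Trim30a was higher. Isg15 was measured at 12.3, 10.8 and 19.7 CPM in CD8+ DCs and at 34.5, 33.2 and 80.7 CPM in CD4+ DCs (log2 fold change -1.79 ± 0.33, adjusted p = 0.000508). Usp18, the protease that removes ISG15 and restrains the interferon receptor, was measured at 48.3, 44.7 and 57.7 CPM against 117, 91 and 126 CPM (-1.15 ± 0.2, adjusted p = 0.000297). Neither pair of groups overlapped. Herc6, the murine ISG15 ligase, and Parp14 were lower as well, by 1.64 and 0.79 on the log2 scale. The groups overlapped for Parp14, whose call was lost without CD4+ DC replicate 1 (-0.43, adjusted p = 0.127) and without CD8+ DC replicate 2 (-0.71, adjusted p = 0.0538). Trim30a, a tripartite motif protein that dampens NF-kB signalling, went the other way, with 227, 183 and 205 CPM in CD8+ DCs above 100, 52.7 and 75.1 CPM in CD4+ DCs (1.43 ± 0.23, adjusted p = 0.00012, 2.7-fold).

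Bst2 (tetherin), which holds budding virus on the cell and is a surface marker of plasmacytoid DCs, was also higher in CD8+ DCs. It stood at 45.7, 25.9 and 39 CPM against 15.5, 4.09 and 13.3 CPM in CD4+ DCs, without overlap (log2 fold change 1.74 ± 0.34, adjusted p = 0.000826, 3.36-fold). The 8 plasmacytoid DC markers, Bst2 left aside, summed to 153 to 263 CPM in CD8+ and to 119 to 141 CPM in CD4+ DC libraries, and 3 of the 6 that were tested were higher in CD8+ DCs (Siglech, Ccr9 and Pacsin1). Their part in the level of Bst2 was not tested. Ifitm1, a membrane restriction factor, was measured at 1.2, 1.75 and 0.115 CPM in CD8+ DCs and at 31.1, 32.2 and 28.6 CPM in CD4+ DCs (-4.92 ± 0.54, adjusted p = 2.2e-06). CD4+ DCs had the highest level of Ifitm1 of all 5 subtypes, without overlap with another. Ifitm3 was lower too (-1.57 ± 0.35, adjusted p = 0.00224), though CD4+ DC replicate 2 at 54.2 CPM lay within the CD8+ range of 42.9 to 56.7 CPM.

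Of the 8 GTPases, 6 were lower in CD8+ DCs, and Mx1 was higher. Mx1, which traps viral nucleoproteins, stood at 61.7, 48.8 and 67 CPM against 39.7, 16.7 and 31.8 CPM (log2 fold change 1.0 ± 0.25, adjusted p = 0.00601). Mx2, its neighbour on chromosome 16, fell by 1.34. The guanylate-binding protein Gbp7 fell by 3.77 (by 2.44 with limma on log2(TPM + 1)), Gbp3 by 1.57 and Gbp2 by 1.35, and the immunity-related GTPases Igtp by 1.16 and Irgm1 by 1.04 on the log2 scale. The call of Gbp2 was lost in 4 of 20 alternatives, limma (-1.16, adjusted p = 0.072) and CD8+ DC replicate 1 or 2 left out (adjusted p = 0.0511 and 0.0675) among them, and that of Gbp3 in 1. Both rested in part on CD4+ DC replicate 3, in which the pair stood at 55.1 and 37.3 CPM: without that library the log2 fold change was -0.62 for Gbp2 (adjusted p = 0.177) and -0.84 for Gbp3 (adjusted p = 0.11).

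The factors differed by less than 1 on the log2 scale. Stat2 stood at 134, 113 and 152 CPM in CD8+ DCs and at 191, 188 and 345 CPM in CD4+ DCs (-0.86 ± 0.23, adjusted p = 0.00821, and -0.51 with adjusted p = 0.0595 without CD4+ DC replicate 3). Irf1 stood at 134, 155 and 257 CPM against 244, 284 and 319 CPM, overlapping (-0.63 ± 0.23, adjusted p = 0.0443, lost in 11 of 20 alternatives, with adjusted p up to 0.187, and -0.96 without CD8+ DC replicate 3). Irf7 at 375, 505 and 381 CPM against 445, 551 and 616 CPM gave -0.35 ± 0.23 (adjusted p = 0.279). Irf9 at 84.4, 80.4 and 107 CPM against 83.8, 42.6 and 101 CPM gave 0.25 ± 0.24 (adjusted p = 0.467). The latter pair overlapped between the subtypes. The remaining members that were lower were Rtp4 (by 4.18), Ifi27l2a (2.25), Isg20 (2.59), Rsad2 (2.47), Cmpk2 (1.37) and Xaf1 (1.18, all log2).

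**Figure D3:**
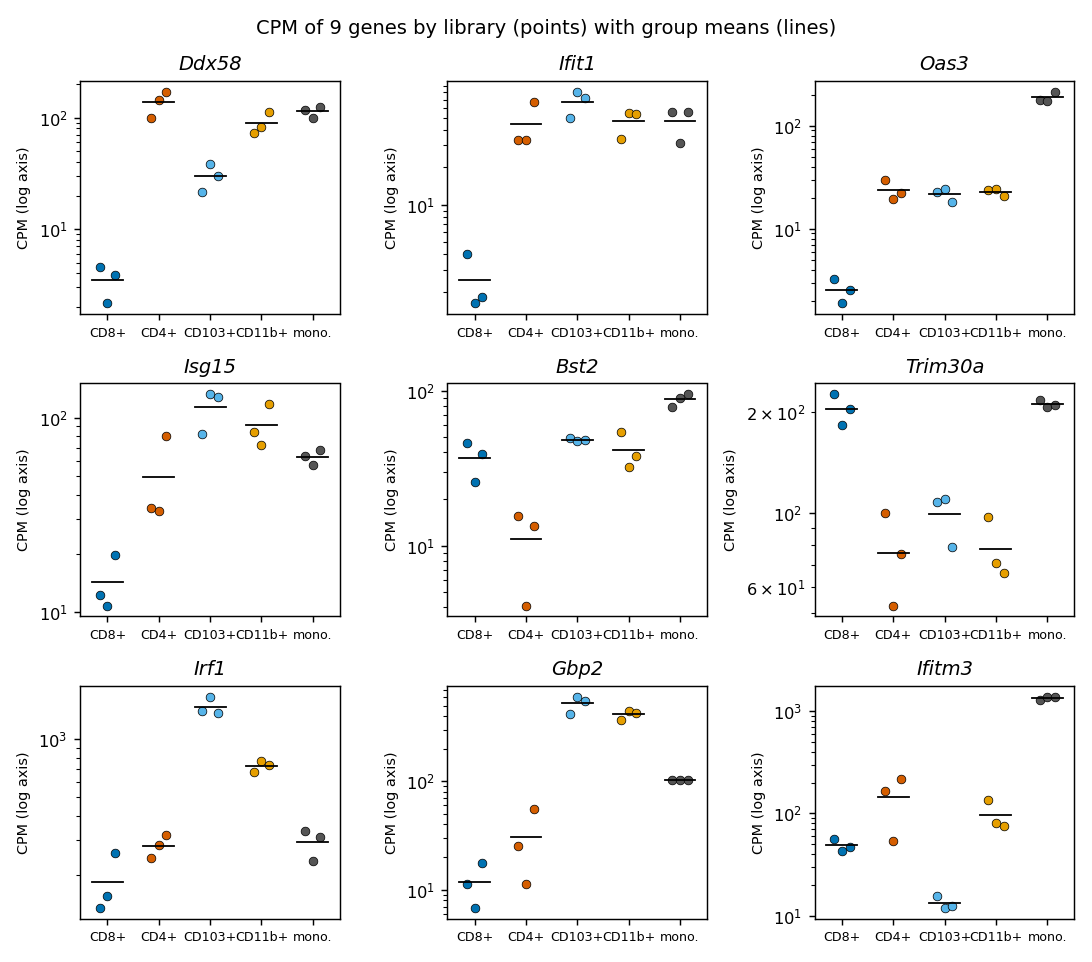
CPM (y axis, log scale) of 9 members in each of the 3 libraries of the 5 subtypes (x axis). By mean level, Ddx58, Ifit1 and Oas3 were lowest in CD8+ DCs, Bst2 and Trim30a in CD4+ DCs and Ifitm3 in LN CD103+ DCs. Irf1 and Gbp2 were higher in both LN subtypes than in any splenic DC library.

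In the LN, the DC1 and DC2 subtypes were closer. Of the 46 members, 9 were lower in CD103+ than CD11b+ DCs (19.6%, against 7.73% of all genes tested), 3 were higher (6.52%, against 5.22%) and 34 did not pass the test. The median log2 fold change of the members was -0.08, beside -0.01 over all genes, and the score differed by -0.28. LN libraries of the same number were paired by the rule, and with the replicate number as a block 18 members passed: Ifi204, Ifi44, Ifitm1, Ifitm2 and Rtp4 were then lower as well (adjusted p = 0.0263, 0.0225, 0.0354, 0.0297 and 0.0363) and Ifi35 higher (adjusted p = 0.0393). The share of all genes that passed with the block is not given here, so a gain in the members cannot be told from one over all genes.

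The 3 members higher in LN CD103+ DCs were Oasl1, Irf1 and Adar. Oasl1, which represses translation of Irf7, stood at 158, 142 and 107 CPM in CD103+ DCs and at 53.5, 26.1 and 13.7 CPM in CD11b+ DCs (2.11 ± 0.45, adjusted p = 0.00344). Irf1 stood at 1390, 1660 and 1370 CPM against 678, 769 and 740 CPM (1.01 ± 0.23, adjusted p = 0.00486). Adar stood at 274, 281 and 235 CPM against 185, 187 and 172 CPM (0.54 ± 0.16, adjusted p = 0.0331, lost in 7 of 20 alternatives). None of these 3 overlapped between the subtypes.

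The members lower in LN CD103+ DCs were led by Ifitm3, at 15.6, 11.8 and 12.4 CPM against 136, 79.6 and 75.1 CPM (-2.87 ± 0.37, adjusted p = 3.03e-05). Oas2 stood at 4.19, 1.99 and 1.33 CPM against 24.7, 13.3 and 5.52 CPM (-2.56 ± 0.59, adjusted p = 0.00657, and 0.0565 without CD11b+ DC replicate 1). Gbp7 stood at 8.09, 9.71 and 9.11 CPM against 26.5, 22.3 and 35.4 CPM (-1.63 ± 0.32, adjusted p = 0.00164). The groups did not overlap for any of these genes. Ifi27l2a (-1.58), Ddx58 (-1.57), Irf7 (-1.38), Isg20 (-1.13), Irgm1 (-0.93) and Oas1a (-0.89) made up the rest. The calls of the last 3 were each lost in 4 of 20 alternatives, all of them a left-out LN library, with adjusted p up to 0.0909 for Isg20 and 0.138 for Oas1a, and without CD11b+ DC replicate 3 Irgm1 gave -0.6 (adjusted p = 0.174). Irf7 was measured at 241, 228 and 164 CPM in CD103+ DCs and at 492, 738 and 415 CPM in CD11b+ DCs (adjusted p = 0.000555), so that Irf1 and Irf7 went opposite ways in this comparison. The 5 monocyte markers were lower in CD103+ DCs as well, at 19.7 to 37.4 CPM in sum against 505 to 585 CPM, and monocytes had the highest mean level of 6 of the 9 lower members (Ifitm3, Oas2, Gbp7, Ifi27l2a, Irf7 and Oas1a). Ddx58, Isg20 and Irgm1 were highest in splenic CD4+ DCs. Of the 6 markers of red pulp macrophages, 5 were lower in CD103+ DCs too, and the 6 summed to 184 to 220 CPM against 493 to 685 CPM, with the complement gene C1qb at a mean of 13.1 against 205 CPM. The part of monocyte or macrophage RNA in these differences was not tested.

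Several effectors that differed between the splenic subtypes did not pass the test between the LN subtypes. Ifit1 was measured at 49.7, 81.2 and 71.7 CPM in CD103+ DCs and at 33.7, 54.5 and 53.9 CPM in CD11b+ DCs (log2 fold change 0.52, adjusted p = 0.357). Oas3 stood at 22.9, 24.1 and 18.2 CPM against 23.7, 24.2 and 21 CPM (-0.08 ± 0.21, adjusted p = 0.872). Isg15 stood at 82.2, 132 and 127 CPM against 83.9, 72.6 and 118 CPM (0.32 ± 0.31, adjusted p = 0.583). These groups overlapped. So did Usp18 at 329, 301 and 265 against 288, 272 and 231 CPM (adjusted p = 0.642), Bst2 at 49.3, 47 and 47.9 against 54.4, 32.3 and 38 CPM (adjusted p = 0.756) and Stat2 at 148, 132 and 143 against 124, 111 and 145 CPM (adjusted p = 0.739). Irf9 stood at 88.6, 80.3 and 81.2 CPM against 77.8, 58.2 and 61.7 CPM (0.34 ± 0.24, adjusted p = 0.42).

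The comparison of LN with spleen was made within each lineage. In DC1, the members were higher in LN CD103+ than in splenic CD8+ DCs: 26 were higher (56.5%, against 23.8% of all genes tested), 4 were lower (8.7%, against 21.8%) and 16 did not pass the test. The median log2 fold change was 1.16 over the members and 0.0 over all genes, 23 members rose by more than 2-fold, and the score differed by 1.41. This comparison shares the CD8+ DC libraries with the splenic one, so that a low value in these 3 libraries enters both.

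Gbp2, a GTPase that attacks vacuoles of intracellular pathogens, gave the largest difference. It stood at 11.2, 6.75 and 17.6 CPM in splenic CD8+ DCs and at 418, 606 and 549 CPM in LN CD103+ DCs (5.46 ± 0.45, adjusted p = 1.54e-08, 44.2-fold). Ifit1 differed 27-fold in mean CPM (4.74 ± 0.41, adjusted p = 2.96e-08). Oasl1, at 3.94, 11.9 and 12.4 CPM in the spleen, differed 14.4-fold (3.85 ± 0.49, adjusted p = 3.59e-06). No library of one organ reached the range of the other for these genes.

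Of the 10 RNA-binding effectors and synthetases, 8 were higher in LN CD103+ DCs, among them Oasl2 (3.28), Oas3 (3.08), Oas1a (2.52) and Ifit3 (2.5, log2 fold changes). Of the 5 genes of the ISG15 system and the ligases, 4 were higher, with Isg15 (2.99 ± 0.34, adjusted p = 8.93e-07), Usp18 (2.57 ± 0.21, adjusted p = 1.16e-08), Herc6 (3.08) and Parp14 (1.58). Of the 8 GTPases, 5 were higher, with Gbp3 (3.1), Gbp7 (2.81, and 1.59 by limma on log2(TPM + 1)), Mx1 (2.42) and Mx2 (1.19) beside Gbp2. Of the sensors, Ddx58 (3.06) and Ifih1 (1.47) were higher. Of the factors, Irf1 rose 8.08-fold, from 134 to 257 CPM in the splenic libraries to 1370 to 1660 CPM in the LN libraries (3.01 ± 0.24, adjusted p = 1.1e-08). Stat2 gave 0.08 ± 0.23 (adjusted p = 0.79) and Irf9 -0.12 ± 0.24 (adjusted p = 0.716).

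The 4 members that were lower in LN CD103+ DCs were Ifitm3 (-1.88 ± 0.36, adjusted p = 0.000332), Trim30a, Irf7 and Ifi44 (-1.4 ± 0.46, adjusted p = 0.0174, lost in 2 of 20 alternatives). Trim30a stood at 108, 110 and 78.9 CPM in LN CD103+ DCs, below all splenic CD8+ DC libraries (-1.05 ± 0.22, adjusted p = 0.00079). Irf7, at 164 to 241 CPM, lay below the splenic range of 375 to 505 CPM (-1.0 ± 0.24, adjusted p = 0.00191). Bst2 gave 0.38 ± 0.32 (adjusted p = 0.349). T cell markers moved with this comparison: all 4 were higher in LN than in splenic DCs in both lineages. Lck had the highest mean of them, at 49.2 CPM in LN CD103+ and 39.4 CPM in LN CD11b+ DCs. Cd3e, Cd3d and Trac averaged 7.63, 9.95 and 8.22 CPM in the former and 3.3, 8.37 and 5.23 CPM in the latter. The sort took lineage-negative cells. The part of T cell RNA in the members' differences was not tested.

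In DC2, the organs differed less and in both directions. Of the 46 members, 10 were higher in LN CD11b+ than in splenic CD4+ DCs (21.7%, against 19.3% of all genes tested), 6 were lower (13.0%, against 13.8%) and 30 did not pass the test. These shares lay near those of all genes. The median log2 fold change was 0.18 over the members and 0.05 over all genes, and the score differed by 0.28. Libraries of the same number were paired by the rule, and with the replicate number as a block Gbp7 was higher too (adjusted p = 0.0448), and Ddx58 and Irgm1 lower (adjusted p = 0.0383 and 0.0431). Of the 5 monocyte markers, 4 were higher in LN CD11b+ DCs (Ly6c2, Ccr2, Fcgr1 and Cx3cr1) and Csf1r was not called. The 5 summed to 505 to 585 CPM there and to 443 to 624 CPM in splenic CD4+ DCs, with Ccr2 at means of 125 and 16.9 CPM. Of the 6 red pulp macrophage markers, C1qa and C1qb were higher and Hmox1 lower. The part of monocyte or macrophage RNA in these differences was not tested.

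Of the 8 GTPases, 3 were higher in LN CD11b+ DCs, with the largest fold changes among the 10 higher members. Gbp2 stood at 25.1, 11.3 and 55.1 CPM in splenic CD4+ DCs and at 366, 449 and 427 CPM in LN CD11b+ DCs (3.76 ± 0.41, adjusted p = 1.24e-06, 13.6-fold). Mx1 stood at 39.7, 16.7 and 31.8 CPM against 330, 274 and 238 CPM (3.25 ± 0.27, adjusted p = 4.28e-08, 9.55-fold). Gbp3 stood at 12.6, 12.1 and 37.3 CPM against 70, 78.4 and 86.6 CPM (1.93 ± 0.41, adjusted p = 0.00128). The organs did not overlap for these genes. Bst2 (1.91 ± 0.34, adjusted p = 0.000235), Irf1 (1.37 ± 0.23, adjusted p = 0.000128), Usp18 (1.25 ± 0.2, adjusted p = 7.7e-05), Herc6 (0.98), Rsad2 (1.29) and Ifi204 (0.97) were higher as well. Isg15 was called (0.88 ± 0.31, adjusted p = 0.0374), but splenic replicate 3 at 80.7 CPM lay within the LN range of 72.6 to 118 CPM, and the call was lost in 6 of 20 alternatives, with values from 0.66 without splenic replicate 2 or LN replicate 3 to 1.43 without splenic replicate 3. The call of Rsad2 was lost in 2, with adjusted p up to 0.0615.

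The effectors that differed most between the splenic subtypes were among those lower or not called here. Ifitm1 stood at 31.1, 32.2 and 28.6 CPM in the spleen and at 9.14, 4.84 and 3.54 CPM in the LN (-2.35 ± 0.46, adjusted p = 0.000563). Isg20, an exonuclease of single-stranded RNA, stood at 62.5, 83.5 and 46.4 CPM against 24, 26.7 and 12.4 CPM (-1.6 ± 0.3, adjusted p = 0.00035). Ifit3 stood at 57.2, 41.6 and 124 CPM against 35.1, 33.9 and 37.8 CPM (-1.06 ± 0.39, adjusted p = 0.045). The groups were apart in all 3, but the call of Ifit3 rested on splenic replicate 3, without which the log2 fold change was -0.48 (adjusted p = 0.341), and 8 of 20 alternatives lost it. Stat2 (-0.93 ± 0.23, adjusted p = 0.00369), Ifit2 (-0.84) and Dhx58 (-0.58) were the others. Without splenic replicate 3 they gave -0.58 (adjusted p = 0.0299), -0.58 (adjusted p = 0.164) and -0.52 (adjusted p = 0.104) in that order. The call of Ifit2 was lost in 5 of 20 alternatives and that of Dhx58 in 9, with adjusted p up to 0.122. Ifit1 (0.09), Oas3 (-0.05), Oas1a (-0.06) and Irf7 (0.03) had log2 fold changes near 0, and Irf9 gave -0.2 (adjusted p = 0.567).

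The difference between these organ effects was tested itself, as an interaction. It was positive, that is, the log2 fold change from spleen to LN was greater in DC1 than in DC2, for 23 of the 46 members (50%, against 5.17% of all genes tested), and negative for 2 (4.35%, against 6.03%). Of the 23, 19 were higher in the LN in DC1. The other 4 did not pass the test in DC1: Stat2, Isg20 and Ifitm1 were lower in the LN in DC2, and Igtp passed in neither lineage. The median was 1.12 over the members and -0.07 over all genes. By role, the test was passed by 8 of the 10 RNA-binding effectors and synthetases, 4 of the 5 genes of the ISG15 system and the ligases in the positive direction, 2 of the 5 sensors, 2 of the 4 factors and 2 of the 8 GTPases (Igtp and Gbp7). Of the 25 calls, 10 were lost in some alternative: Igtp and Xaf1 in 12 of 20, Parp14 and Rsad2 in 10, Adar in 7, Isg20 in 6, Gbp7 in 1, and Stat2, Bst2 and Trim30a as given below. With limma on log2(TPM + 1) the interaction was 0.96 for Gbp7 (adjusted p = 0.205, against 2.14 by edgeR) and 1.23 for Rsad2 (adjusted p = 0.201, against 1.89).

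The largest interactions were those of Ifit1 (4.65 ± 0.52, adjusted p = 1.36e-05), Ddx58 (3.7 ± 0.4, adjusted p = 9.12e-06) and Oasl2 (3.67 ± 0.37, adjusted p = 5.04e-06). Oasl2 stood at 13.9, 10.4 and 6.3 CPM in splenic CD8+ DCs, at 134, 119 and 168 CPM in splenic CD4+ DCs, and in the LN at 79.8, 129 and 87.6 CPM (CD103+ DCs) and 110, 128 and 82.2 CPM (CD11b+ DCs). Only the CD8+ DC libraries lay apart among these 12. Ddx58 differed from this pattern, since LN CD103+ DCs at 21.6, 38.3 and 29.7 CPM lay between splenic CD8+ DCs and LN CD11b+ DCs at 72.6, 81.8 and 112 CPM.

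Trim30a (-1.09 ± 0.32, adjusted p = 0.0314) and Bst2 (-1.53 ± 0.46, adjusted p = 0.0381) had negative interactions. The former fell from spleen to LN in DC1, while the latter rose in DC2. Their calls were lost in 5 and in 10 of 20 alternatives, with adjusted p up to 0.102 and 0.116. Isg15 (2.11 ± 0.45, adjusted p = 0.00466), Usp18 (1.32 ± 0.28, adjusted p = 0.00415) and Irf1 (1.65 ± 0.32, adjusted p = 0.00235) were positive. Stat2 was called at 1.01 ± 0.32 (adjusted p = 0.0471) and lost in 12 of 20 alternatives (0.67 without CD4+ DC replicate 3, adjusted p = 0.11). Irf7 (-1.02 ± 0.33, adjusted p = 0.0521) and Gbp2 (1.69 ± 0.54, adjusted p = 0.0502) lay just outside the threshold. With the replicate number as a block, 30 members passed in place of 25: Irf7 (adjusted p = 0.0354), Gbp2 (0.023), Cmpk2 (0.048), Ifitm3 (0.0433) and Oas2 (0.0202) were the ones added. The share of all genes with the block is not given here, and CD8+ and LN CD103+ DC libraries were not paired by the rule. Irf9 gave 0.08 (adjusted p = 0.923). Mx1, higher in the LN in both lineages, gave -0.83 (adjusted p = 0.137).

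**Figure D4:**
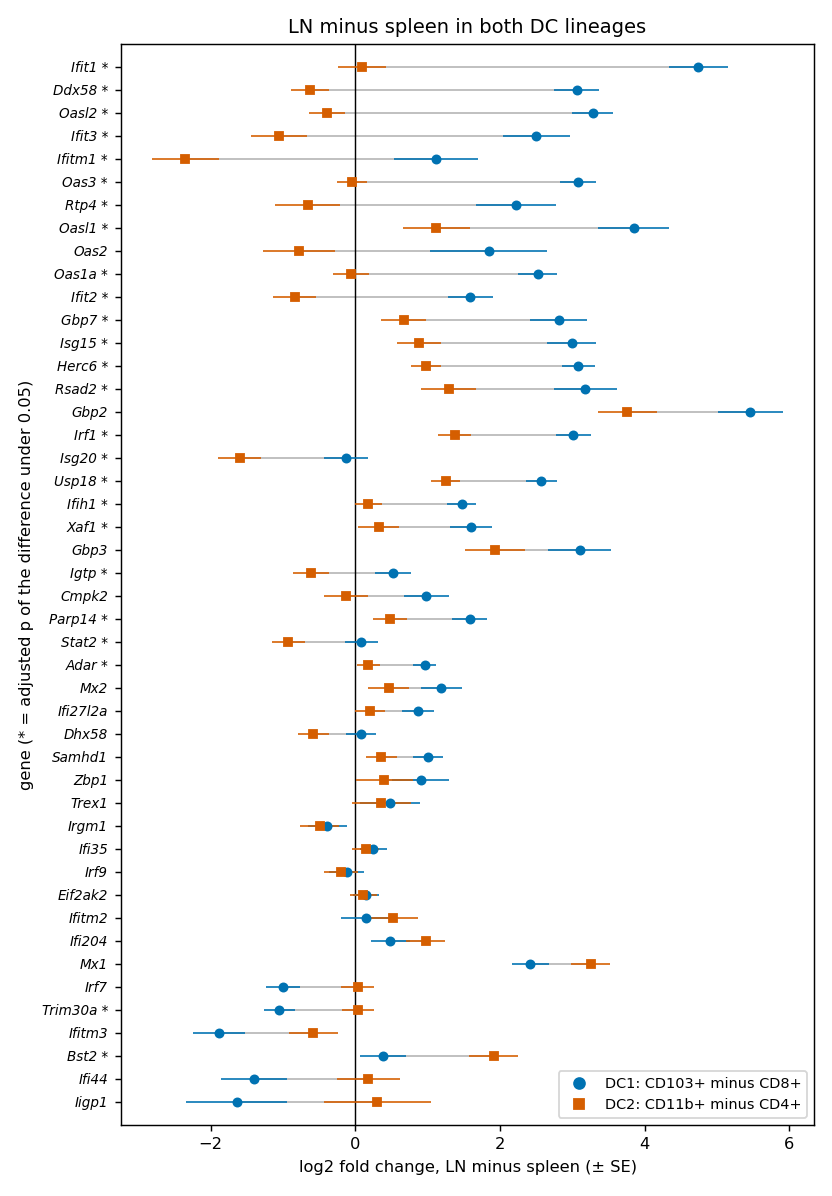
Log2 fold change from spleen to LN (axis, LN minus spleen, ± SE) of each member in DC1 (CD103+ minus CD8+ DCs) and in DC2 (CD11b+ minus CD4+ DCs), ordered by the difference between the lineages, with an asterisk where that difference passed the test. Asterisks stand at 25 members, 23 of them with the larger value in DC1.

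The last comparison set splenic Ly6C+ monocytes against the mean of the log2 levels of both splenic DC subtypes. Monocytes were enriched on CD11b beads and DCs on CD11c beads. Each monocyte library was summed over 2 sequencing runs, and each DC library came from 1. Beads and runs therefore cannot be told apart from cell type here. The members were higher in monocytes. Of the 46, 37 were higher (80.4%, against 24.3% of all genes tested), 29 of them by more than 2-fold, and 9 did not pass the test. None was lower in edgeR's test as reported, where 24.0% of all genes were. The count of lower members was also 0 at an unadjusted p under 0.05, and 0 by DESeq2 and by limma. Iigp1, the only member with a negative value (-1.24, adjusted p = 0.131), was lower with the replicate number as a block (-1.01, adjusted p = 0.0299) and without the filter on low counts (adjusted p = 0.0137). Monocyte and splenic DC libraries were not paired by the rule given with the methods. The median log2 fold change was 1.56 over the members and -0.02 over all genes, 45 of the 46 fold changes were positive, and the score differed by 1.89. Since CD8+ DCs enter this mean, the levels were also set against each DC subtype: the monocyte mean lay above that of CD8+ DCs for 45 members and above that of CD4+ DCs for 39. Of the 37 members called, the exception was Ddx58, at 118, 99.9 and 125 CPM in monocytes against 98.6, 143 and 171 CPM in CD4+ DCs (2.37 ± 0.23 against the mean of both DC subtypes, adjusted p = 7.48e-08).

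The largest differences were those of 2 oligoadenylate synthetases. Oas2 was measured at 131, 135 and 163 CPM in monocytes (5.07 ± 0.47, adjusted p = 5.04e-08) and Oas3 at 179, 172 and 214 CPM (4.59 ± 0.19, adjusted p = 1.27e-12). In splenic DCs, Oas2 reached 43 CPM at most and Oas3 29.9 CPM. Ifitm3 was measured at 1290, 1390 and 1390 CPM, above 42.9 to 215 CPM in splenic DCs (4.01 ± 0.29, adjusted p = 1.62e-09, 14-fold in mean CPM). Ifitm2, its neighbour, differed by 3.75, with 48.51% of its 50-base words shared with another gene. All 10 RNA-binding effectors and synthetases passed the test, though the call of Adar (0.37 ± 0.14, adjusted p = 0.033) was lost in 5 of 20 alternatives, with adjusted p up to 0.142, any 1 monocyte library left out among them. All 5 sensors passed, among them Ifi204 (3.91 ± 0.22, adjusted p = 6.14e-11), at 263, 254 and 293 CPM against at most 24.5 CPM in splenic DCs. Samhd1, which depletes nucleotides, was measured at 1160, 1050 and 1240 CPM against 218 to 384 CPM (1.95), and Cmpk2, a mitochondrial nucleotide kinase, at 175, 114 and 178 CPM against 7.77 to 42.9 CPM (3.15).

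Factors and modifier genes differed less. Irf7 stood at 1250, 1030 and 1390 CPM, above all DC libraries (1.37 ± 0.19, adjusted p = 1.12e-05). Stat2 stood at 276, 204 and 270 CPM (0.48 ± 0.19, adjusted p = 0.0443, lost in 12 of 20 alternatives) and Irf9 at 114, 123 and 131 CPM (0.57 ± 0.2, adjusted p = 0.0282, lost in 4). Irf1 stood at 334, 236 and 314 CPM (0.38 ± 0.19, adjusted p = 0.114) and overlapped with both splenic DC subtypes. Isg15 at 63.5, 57.1 and 68 CPM (1.24 ± 0.26, adjusted p = 0.000765) and Usp18 at 139, 96.1 and 140 CPM (0.74 ± 0.17, adjusted p = 0.00115) overlapped with the range of CD4+ DCs. Bst2 at 78.3, 89.7 and 94.9 CPM lay above every DC library (2.12 ± 0.27, adjusted p = 2.55e-06).

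The 9 members that did not pass were Irf1, Herc6, Isg20, Trex1, Ifitm1, Iigp1, Irgm1, Igtp and Ifi44. Ifitm1 at 6.1, 7.87 and 6.45 CPM lay between CD8+ DCs and CD4+ DCs. Of the listed neutrophil markers, S100a8, S100a9, Mpo and Camp were higher in monocyte libraries, while Ly6g had 4 counts there. In its text the paper names S100A8 and S100A9, and not Mpo or Camp, among monocyte genes. The sort took lineage-negative cells. The 6 listed markers summed to 91.5 to 145 CPM in monocyte libraries. The part of neutrophil RNA in the monocyte levels of the members, Ifitm3 among them, was not tested. Against the LN subtypes, monocytes were not the highest for every member. Isg15, Usp18, Herc6, Mx1, Gbp2, Irf1, Oasl1, Ifit1, Adar, Trex1, Ifi35 and Iigp1 had a higher mean in LN CD103+ DCs.

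**Figure D5:**
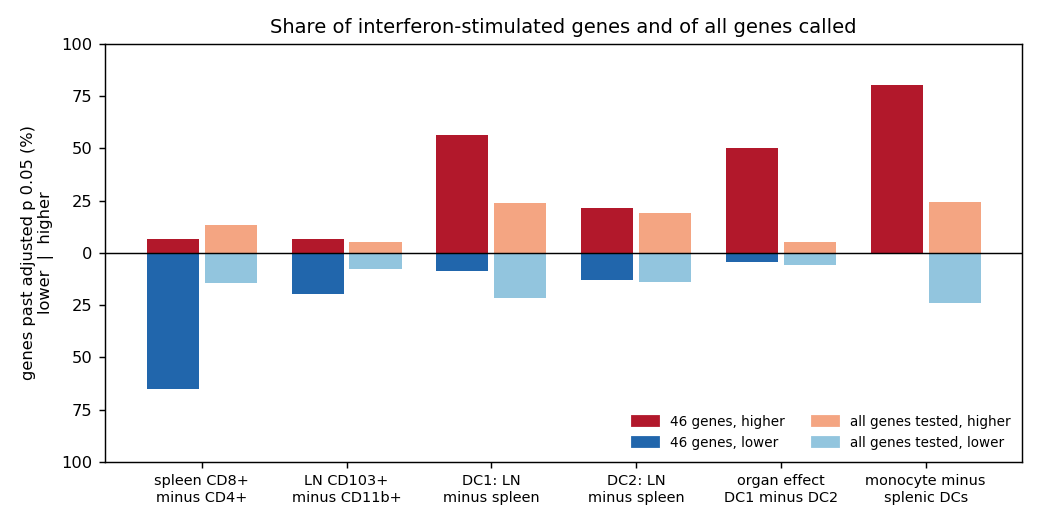
Percent of the 46 members and percent of all 14456 genes tested (y axis) that were higher or lower in each comparison (x axis), by edgeR's quasi-likelihood test at an adjusted p of 0.05. Of the members, 65.2% were lower in splenic CD8+ than CD4+ DCs and 80.4% were higher in monocytes, while in DC2 the shares of 21.7% and 13.0% lay near those of all genes.

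Some members varied by library number. Iigp1 was highest in replicate 3 of every subtype, at 23.8 CPM in CD8+ DCs, 7.32 CPM in CD4+ DCs, 3.82 CPM in monocytes and, in the LN, 5.47 CPM (CD103+ DCs) and 10.2 CPM (CD11b+ DCs). Trex1 was lowest in replicate 3 of every subtype, at 130, 42.3, 150, 129 and 45.5 CPM in the same order. CD4+ DC replicate 3 had the highest score of its subtype (5.97), and the highest level of Ifit1, Ifit3, Isg15, Gbp2 and Stat2.

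The ISRE core was read against the calls as a description. In the splenic comparison, it was found in 15 of the 23 lower members that had a window, in both of the higher members that had one (Trim30a and Bst2) and in 2 of the 10 that did not pass (Eif2ak2 and Ifitm2). In DC1, it was found in 11 of 20 members higher in the LN, in 2 of the 4 lower and in 6 of 11 that did not pass. In DC2, the core was in 5 of 7 higher, 2 of 5 lower and 12 of 23 that did not pass. Between the LN subtypes, it was in 0 of 3 members higher in CD103+ DCs, 5 of 7 lower and 14 of 25 that did not pass. In monocytes, it was found in 17 of 27 higher members and in 2 of 8 that did not pass (Irgm1 and Igtp). Members with the core were thus found on both sides of the splenic comparison, as the sequences of Ifit1 and Bst2 show.

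The rest of the pathway was followed over a list of 56 genes for interferons, receptors, kinases, inhibitors and inducers. Of these, 52 were matched to counts (Ifna6, Ifna7, Ifna11 and Ifnab are not analysed here) and 35 passed the filter. None of the 17 interferon genes that were matched passed it. Ifnb1 had 1 count over all 15 libraries, Ifnk 16 and Ifng 13, and the others, 10 alpha interferon genes among them, had 0. A count of 0 allows up to 3 counts in a library of the same depth. Ifng reached 1.99 CPM in LN CD11b+ DC replicate 3 and at most 0.499 CPM elsewhere, and that library also had the highest levels of the NK cell markers Ncr1 (5.52 CPM) and Klrb1c (6.85 CPM), whose part was not tested. Of the 35 genes tested, 30 differed somewhere among the 5 subtypes (85.7%, against 73.5% of all genes tested), and Ifnar1, Irf3, Tlr9 and Irak1 were among those that did not pass.

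In CD8+ against CD4+ DCs, 5 of the 35 genes were higher (14.3%, against 13.1% of all genes tested) and 11 lower (31.4%, against 14.4%). The share of higher genes lay near that of all genes. Of the 6 receptor chains, Ifngr1 (0.52 ± 0.18, adjusted p = 0.0436) and Ifnlr1 (1.94 ± 0.59, adjusted p = 0.0203) were higher and Ifnar1, Ifnar2, Ifngr2 and Il10rb did not pass. Of the 10 inhibitors, 7 were lower, with the phosphatase gene Ptpn6 by 1.84 on the log2 scale. The inhibitor Socs1 was higher (1.95 ± 0.43, adjusted p = 0.00235), at a mean of 5.77 against 1.5 CPM. The endosomal sensor Tlr3, a known marker of DC1, stood at 209, 272 and 364 CPM in CD8+ DCs against 11, 6.99 and 9.49 CPM in CD4+ DCs (4.93 ± 0.49, adjusted p = 6.47e-07). Tlr7 went the other way (-4.46 ± 0.33, adjusted p = 1.92e-08), and so did Tmem173, which encodes STING (-1.87 ± 0.25, adjusted p = 2.36e-05).

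Between LN CD103+ and LN CD11b+ DCs, 2 pathway genes were higher (Tyk2 and Pias1, 5.71%, against 5.22% of all genes tested) and 4 lower (Ifngr1, Socs3, Ptpn1 and Tlr7, 11.4%, against 7.73%). From spleen to LN in DC1, 16 were higher (45.7%, against 23.8%) and 6 lower (17.1%, against 21.8%). In DC2, 10 were higher (28.6%, against 19.3%) and 7 lower (20%, against 13.8%). In both lineages Ifngr1, the ligand-binding chain of the interferon gamma receptor, fell (by 3.6 and 1.62 on the log2 scale), and the inhibitors Socs1 (1.96 and 3.55) and Pias3 (3.68 and 2.25) rose. The interaction was positive for 5 (Jak2, Ptpn6, Pias3, Traf3 and Tmem173, 14.3%, against 5.17%) and negative for 3 (Ifngr1, Ifnlr1 and Tlr3, 8.57%, against 6.03%). In monocytes, 20 of the 35 were higher than in splenic DCs (57.1%, against 24.3%) and 5 lower (14.3%, against 24.0%). The receptor chains Ifnar1 (0.45), Ifnar2 (1.26), Ifngr1 (0.77) and Ifngr2 (1.32) were among the higher and Jak2 (-2.4) among the lower. Ifnar1 was called here (edgeR adjusted p = 0.0388) with overlapping libraries, though it did not pass the test across the 5 subtypes (adjusted p = 0.0867). The kinase gene Ikbke stood at 49.6, 59.4 and 69.1 CPM in monocytes against at most 3.33 CPM in splenic DCs (5.99 ± 0.53, adjusted p = 3.05e-08).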

How the data were processed

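RNA-seq was analysed in 15 murine libraries, 3 of each of 5 sorted subtypes, grouped by their sample labels. The authors discarded reads under 30 bases, aligned the others to mm10 with STAR 2.4.0j, and used featureCounts (Subread 1.5.2), unstranded, to assign unique alignments to the genes of Ensembl 75. A read that overlapped several genes by a fraction of at least 0.5 was counted for each. They deposited these count values without normalization, with the gene length, and TPM values that the authors made from counts and length. Counts by run stood in 18 further columns and were not used here. Symbols and exon overlaps came from GENCODE vM21, a later annotation, for 37607 identifiers (96.6%).

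The filter (over 1 CPM in 3 or more libraries) kept 14456 genes, tested in R 4.3.3 with edgeR 4.0.16: TMM scaling (factors 0.883 to 1.1), 1 quasi-likelihood fit of the 5 subtype means (common dispersion 0.0681, 10 residual degrees of freedom) and Benjamini-Hochberg adjustment over all genes tested, threshold 0.05. The code was tested on simulated data first. CPM values in the text use the TMM-scaled library sizes, and log2 CPM a prior count of 2. The score is given as a description without a test, since its members were chosen with results known. Fold changes are fitted log2 values with SE, and fold ratios are ratios of mean CPM. The monocyte comparison averages the log2 levels of both splenic DC subtypes.

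Members, gene lists, comparisons and alternatives were chosen with earlier results of these data known. Values in every library are given for up to 3 members per direction and comparison with the largest fold change among those past the threshold whose higher group averaged 10 CPM or more, and for Stat2, Irf1, Irf7, Irf9, Isg15, Usp18 and Bst2. Other members that the text describes with values were chosen after their values had been seen.

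Alternatives were RLE size factors, DESeq2 1.42.0, no filter on low counts (23169 genes), limma 3.58.1 with trend on log2(TPM + 1), the replicate number as a block, each library left out in turn and, for the score, a prior count of 0.5. Whether replicate numbers pair libraries was checked by the correlation of deviations from the subtype means. It was 0.162 to 0.375 between splenic CD8+ and CD4+ DCs, 0.179 to 0.259 between the LN subtypes and 0.197 to 0.266 between CD4+ and LN CD11b+ DCs, which were taken as paired since every pair was over 0.1. It was 0.0374 to 0.086 between CD8+ and LN CD103+ DCs and -0.031 to 0.0384 between monocytes and splenic DCs, which were not. The labels do not say what a number marks. The result for 1 of the pathway genes is not reported here.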

Additional observations from a re-analysis of the deposited data

Results flagged for a closer look

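The change from spleen to LN differed between the DC1 and DC2 lineages for 25 members, by edgeR's quasi-likelihood test of the interaction (Benjamini-Hochberg adjusted p under 0.05). It was positive for 23 of the 46 (50%, against 5.17% of all genes tested) and negative for 2 (4.35%, against 6.03%). The negative share lay near that of all genes. Values are the log2 fold change from spleen to LN in DC1 minus that in DC2. Among the RNA-binding effectors and oligoadenylate synthetases it was 4.65 for Ifit1, 2.44 for Ifit2, 3.56 for Ifit3, 2.58 for Oas1a, 3.13 for Oas3, 2.73 for Oasl1, 3.67 for Oasl2 and 0.79 for Adar. Among the sensors it was 3.7 for Ddx58 and 1.29 for Ifih1, and among the factors 1.65 for Irf1 and 1.01 for Stat2. The ISG15 system and the ubiquitin or ADP-ribose ligases gave 2.11 for Isg15, 1.32 for Usp18, 2.1 for Herc6, 1.09 for Parp14 and -1.09 for Trim30a. The nucleases and nucleotide enzymes gave 1.47 for Isg20 and 1.89 for Rsad2, the membrane proteins 3.47 for Ifitm1 and -1.53 for Bst2, the GTPases 1.13 for Igtp and 2.14 for Gbp7, and the other members 2.88 for Rtp4 and 1.29 for Xaf1. The adjusted p lay between 0.0309 and 0.0471 for Adar, Isg20, Trim30a, Parp14, Bst2, Rsad2, Xaf1, Igtp and Stat2, and was at most 0.0123 for the other 16. Calls lost in some of the 20 alternatives were those of Igtp, Stat2 and Xaf1 (12 each), Bst2, Parp14 and Rsad2 (10 each), Adar (7), Isg20 (6), Trim30a (5) and Gbp7 (1, limma on log2(TPM + 1), 0.96 with adjusted p = 0.205). The score over the members differed by 1.13 between the lineages.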

How the results depend on the processing

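The counts of members called stayed within 1.5 times the reported count under each of the 20 alternatives (RLE, DESeq2, no filter, limma on log2(TPM + 1), replicate block and 15 left-out libraries). They were 33 in CD8+ against CD4+ DCs (29 to 34 without 1 library), 12 between the LN subtypes (8 to 14), 30 from spleen to LN in DC1 (30 to 32), 16 in DC2 (11 to 17), 25 in the interaction (17 to 23, 19 with limma and 31 without the filter) and 37 in monocytes (33 to 39). No called member changed sign. Calls kept under every alternative were 27 of 33, 7 of 12, 28 of 30, 11 of 16, 15 of 25 and 33 of 37 in that order. The score differences ranged from -1.58 to -1.27, -0.33 to -0.22, 1.25 to 1.48, 0.11 to 0.42, 0.99 to 1.3 and 1.79 to 1.98 without 1 library. On log2(TPM + 1), the score difference from spleen to LN in DC1 was 1.2 against 1.41, and the cause was not tested. The replicate block gave 34, 18, 33, 19, 30 and 40 calls and lost no call, and the share of all genes called with it is not given here. Beyond the calls given beside the results, the block added Iigp1 (lower), Oas2 and Zbp1 in DC1 and Herc6 and Isg20 in monocytes, and it changed no other call. The libraries of the DC1 and monocyte comparisons were not paired by the rule. Of the 15 libraries, 13 correlated best with another library of their own number, a hint from the data and not from the design. Limits: each subtype has 3 pools, LN and spleen differ in cohort and gate, and monocytes and DCs differ in beads and runs. Members with copies (Oas1a, Ifit3, Ifitm2) or overlapping exons (Trex1) are uncertain. Oas2, Gbp7, Ifitm1, Rtp4, Ifit1, Oas3, Rsad2, Ifit3 and Ddx58 rest on 17 to 88 counts over the 3 CD8+ DC libraries.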
